A study of Homo sapiens with 6 samples.

Results

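The 37 genes described here build cholesterol and fatty acids, govern the sterol-regulated transcription factors SREBP-1 and SREBP-2, or store, release and carry cholesterol. They were taken by gene symbol from a list of the pathway and not by any measured value, and each was matched to 1 of the 58884 gene IDs in the deposited tables. Transcripts were measured in HCT116, a line established from a human colorectal carcinoma. The siMatrin3 group was transfected with a pool of siRNAs against MATR3, which encodes the nuclear RNA-binding protein Matrin3, and the siCTRL group with a commercial negative control siRNA. RNA was taken 48 h after transfection in 3 libraries per group, which the methods call biological triplicates. All libraries came from 1 cell line, and 1 pool of siRNAs was used, so that an effect of the pool on other transcripts cannot be told apart from an effect of Matrin3 loss.

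Cells make cholesterol from acetyl-CoA through mevalonate, isoprenoid units, squalene and lanosterol. When membrane cholesterol of the endoplasmic reticulum (ER) is low, SCAP carries the SREBP precursors to the Golgi, where proteases release the part that enters the nucleus and turns on genes of sterol and fatty acid synthesis and lipoprotein uptake. When it is high, INSIG proteins hold SCAP in the ER, and INSIGs with their erlin partners help to degrade the reductase that makes mevalonate. Excess cholesterol is esterified by SOAT1 and stored in lipid droplets, from which neutral hydrolases such as NCEH1 can release it. Esters that arrive with lipoproteins are cleaved in lysosomes by LIPA and exported by NPC2 and NPC1.

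The tables summed to 6007630 to 7414040 estimated counts per siMatrin3 library and 4556658 to 8400412 per siCTRL library. Mitochondrially encoded genes took 9.80% to 11.6% of them in siMatrin3 and 9.03% to 10.2% in siCTRL. MATR3 stood at 72.4, 67.9 and 71.4 CPM (counts scaled to a common library total after TMM adjustment) in siMatrin3, against 363, 343 and 330.2 CPM in siCTRL (log2 fold change -2.29 ± 0.06 SE, edgeR quasi-likelihood adjusted p = 7.58e-11). Epithelial markers were present, with summed levels of 1799.6 to 1898 CPM in siMatrin3 and 1577 to 1724 CPM in siCTRL, and 2 of the 6 tested, EPCAM and KRT19, were higher in siMatrin3. Of the 9 epithelial markers, the gut markers KRT20, VIL1 and CEACAM5 were too low to test. Of 7 fibroblast markers, COL1A2, COL3A1, DCN and LUM were at 0 in all libraries, and the summed level was 19.3 to 23.2 CPM in siMatrin3 and 20.3 to 21.6 CPM in siCTRL. Summed blood markers stayed at or below 1.23 CPM in siMatrin3 and 0.881 CPM in siCTRL, and those of adipocytes and hepatocytes at or below 0.780 CPM in siMatrin3 and 0.528 CPM in siCTRL. In bulk RNA, fewer cells of a type and less RNA per cell cannot be told apart.

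All 37 genes passed the filter on low counts and were tested among 14334 genes. At an adjusted p under 0.05, 1 of them rose after Matrin3 knockdown (SREBF1), 3 fell (ERLIN1, NCEH1 and SREBF2) and 33 did not pass. Over all genes tested, 5.68% rose and 5.18% fell, and the 37 genes gave 2.70% and 8.11%, so both shares rest on few genes. The median log2 fold change of the 37 was 0.01, against -0.00 over all genes tested, and their median size without regard to sign was 0.10, against 0.16. The 37 were not matched by level to the other genes, and sizes of change can depend on how well a gene is counted. Whether the smaller median reflects level was therefore not tested. The log2 fold changes of 32 of the 37 lay within 0.25 of 0, as did those of 9701 of all 14334 genes tested. The genes that moved most thus stood apart from a set of which most levels were close to those of the control cells.

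With the replicate number as a block, which pairs siMatrin3 and siCTRL libraries of the same number, 3 of the 37 rose (SREBF1, SQLE and ACLY) and 4 fell (ERLIN1, NCEH1, SREBF2 and IDI1). In that fit 8.39% of all genes tested rose and 7.37% fell. The CPM of the 2 groups did not overlap for 9 of the 37. SREBF1, SQLE, ACLY, ACACA, ELOVL6 and FADS2 were higher in all siMatrin3 libraries, a pattern that 15.0% of all genes tested shared, and ERLIN1, NCEH1 and SREBF2 were lower, as were 14.7% of all genes tested.

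**Figure D1:**
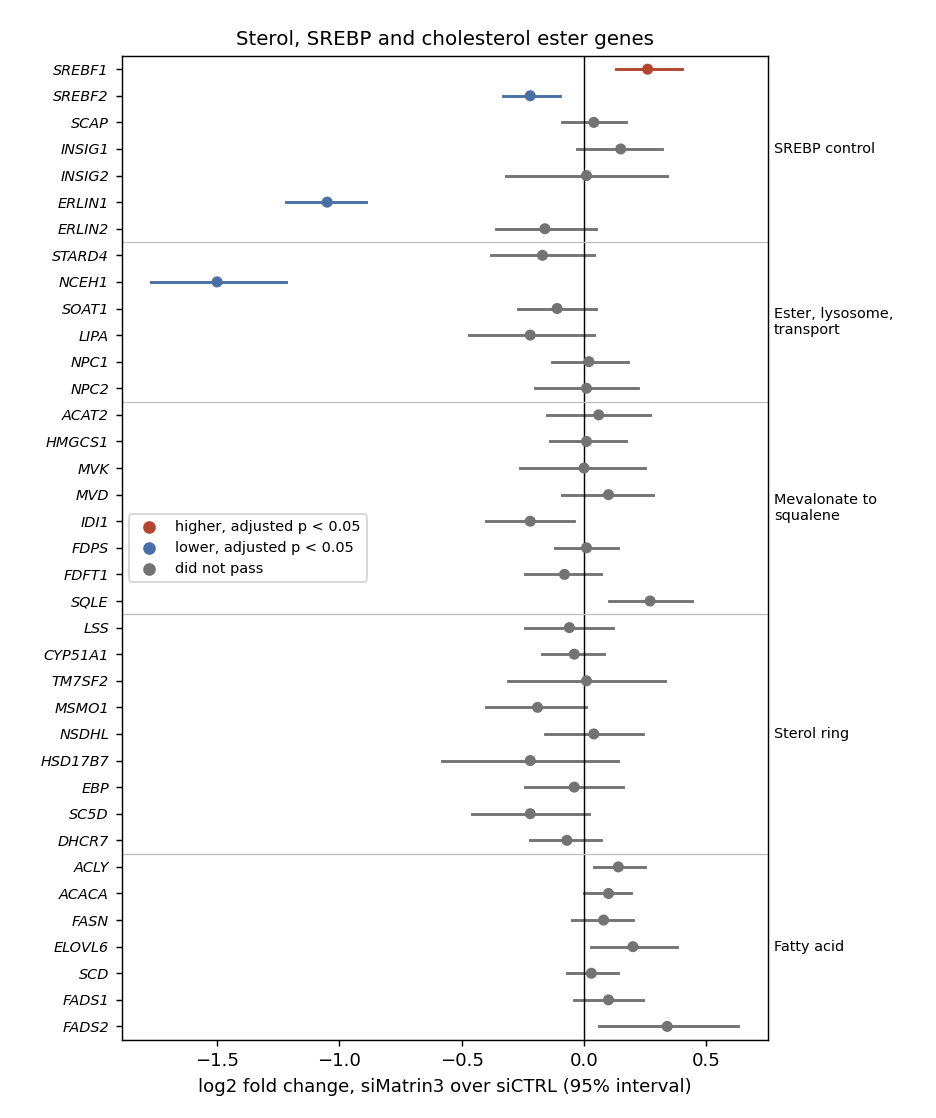
Log2 fold change of siMatrin3 over siCTRL (x axis) for the 37 genes (rows, grouped by role), with points for the edgeR estimate and lines for a normal 95% interval from its SE. ERLIN1 at -1.05 and NCEH1 at -1.50 lie far to the left of the other genes, SREBF1 (0.26) and SREBF2 (-0.22) lie on opposite sides of 0, and the 17 enzymes from mevalonate to the sterol ring lie between -0.22 and 0.27.

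ERLIN1 encodes erlin-1, a protein of cholesterol-rich ER membrane that works in a complex with its paralogue erlin-2. The complex binds ER proteins marked for destruction, among them activated inositol trisphosphate receptors, and has been linked to the restraint of SREBP activation. The gene (ENSG00000107566, chromosome 10, 100150094 to 100186033 on hg38, minus strand, 11 exons in the canonical transcript) overlaps no other annotated gene. It was at 40.5, 36.9 and 36.0 CPM in siMatrin3 libraries, against 84.6, 72.4 and 80.5 CPM in siCTRL libraries. Every siMatrin3 library was far below the lowest control library, and the knockdown cells kept 47.8% of the control level. The log2 fold change was -1.05 ± 0.08 (SE, edgeR quasi-likelihood adjusted p = 1.36e-05), and the pairs of the same replicate number gave -1.06, -0.97 and -1.16. Among all genes tested it ranked 128 from the lowest. On the length-scaled TPM values (transcript shares divided by length) the libraries stood at 12.8, 10.9 and 11.7 in siMatrin3 and at 30.2, 25.7 and 29.7 in siCTRL, so the separation did not depend on the scaling by length.

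Its paralogue ERLIN2, on chromosome 8, did not pass. It was at 32.8, 27.5 and 29.0 CPM in siMatrin3, against 30.9, 31.6 and 37.7 CPM in siCTRL. The groups overlapped, and the log2 fold change was -0.16 ± 0.10 (SE, edgeR adjusted p = 0.388), with a 95% interval from -0.36 to 0.05. The ratio of ERLIN1 to ERLIN2 in CPM was 1.23, 1.34 and 1.24 in siMatrin3 libraries, against 2.74, 2.29 and 2.14 in siCTRL libraries. No siMatrin3 ratio reached the lowest control ratio (exact two-sided permutation p = 0.1, the smallest that 3 against 3 libraries allow). With ERLIN2 differing little, the ratio restates the fall of ERLIN1 and is no separate test. On TPM values, which allow levels of the 2 genes to be set side by side, the ratio averaged 1.28 ± 0.174 in siMatrin3 and 2.65 ± 0.273 in siCTRL (SD, n = 3 each).

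NCEH1 encodes neutral cholesterol ester hydrolase, an ER enzyme that frees cholesterol from stored esters and also acts on ether lipids. The gene (ENSG00000144959, chromosome 3, 172630249 to 172711218 on hg38, minus strand, 5 exons in the canonical transcript) had 7.41, 9.23 and 9.36 CPM in siMatrin3 libraries, against 23.1, 23.0 and 26.9 CPM in siCTRL libraries. The groups were widely apart, and the level in knockdown cells was 35.6% of that in control cells. The log2 fold change of -1.50 ± 0.14 (SE, edgeR adjusted p = 4.62e-05) was the lowest of the 37 genes and ranked 42 from the lowest among all genes tested. TPM values were 2.74, 2.83 and 2.91 in siMatrin3 and 8.89, 9.12 and 9.13 in siCTRL, within a narrow range in each group. Its span holds the pseudogene NAP1L5P1 and a U6 copy on the opposite strand, which carried 11 and 1 estimated counts over the 6 libraries, against 623 for NCEH1.

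**Figure D2:**
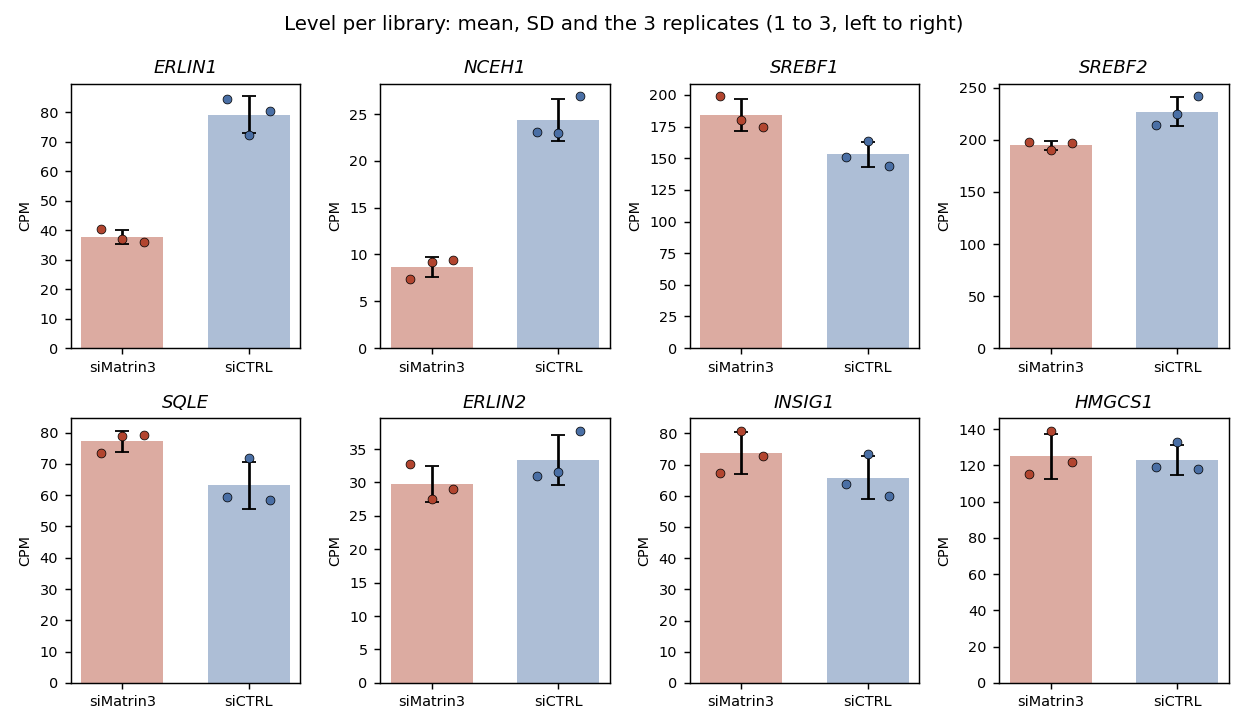
CPM (y axes, from 0, with a scale for each gene) of 8 genes in siMatrin3 and siCTRL, with bars for means, error bars for SD and points for the 3 libraries of each group. ERLIN1 and NCEH1 are lower in all siMatrin3 libraries by wide margins, SREBF1 and SQLE are higher and SREBF2 lower by narrow ones, and the groups overlap for ERLIN2, INSIG1 and HMGCS1.

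The 3′ UTRs of the genes were searched for 2 pairs of 7-base sequences that earlier work on these same libraries had found at unequal shares among the genes that changed, so what follows describes where they stand and is not independent of the measured levels. GAAGACT or AAGACTA occurred in the 3′ UTR of 9 of the 37 genes (24.3%), against 18.4% of 12133 tested genes with a 3′ UTR in their canonical transcript, 39.9% of the 682 of these that fell and 14.5% of the 772 that rose. ERLIN1 and NCEH1 each held 1 match. The other 7 carriers were HMGCS1, CYP51A1, SC5D, ERLIN2, SOAT1, LIPA and FADS1, none of which passed the threshold, and SREBF1 and SREBF2 held none. The windows below are shown because they belong to the genes with the deepest falls and, for contrast, to a carrier with no difference (HMGCS1) and one with 2 matches (SC5D). They run 5′ to 3′ along the transcript's strand of hg38, with the matched 7 bases in capitals.
ERLIN1, chr10:100151692-100151721, minus strand: ggtaagttcaaGAAGACTgattgcacctgg
NCEH1, chr3:172630847-172630876, minus strand: gtgaagaatttAAGACTAttatataattat
SC5D, first match, chr11:121307889-121307918, plus strand: ttaataataccAAGACTAagcaccataacc
SC5D, second match, chr11:121308077-121308106, plus strand: gcaggtgtaatAAGACTAtcgtcttcctac
HMGCS1, chr5:43289012-43289041, minus strand: ttaaaaaagctAAGACTAagggctggcaat

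ATTACAA or TTACAAA occurred in 4 of the 37 genes (10.8%), namely SC5D, STARD4, NCEH1 and FADS2, against 25.7% of the 12133 genes, 33.1% of those that fell and 41.1% of those that rose. In NCEH1 the 2 sequences overlapped in 1 place near the end of a 3′ UTR of 3226 bases (chr3:172630259-172630288, minus strand), shown because the same UTR also held a match of the first pair: ctgaccttgtcATTACAAataaatctaatt. The 3′ UTR of ERLIN1 spans 2037 bases and held neither. A match is a run of letters only, and whether any protein or any of the transfected siRNAs binds there was not tested. The shares were not adjusted for the length of the 3′ UTRs.

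The transcription factor genes moved in opposite directions. SREBF1 encodes SREBP-1, which mainly drives fatty acid synthesis in its SREBP-1c form, and SREBF2 encodes SREBP-2, which mainly drives sterol synthesis and lipoprotein uptake. SREBF1 (ENSG00000072310, chromosome 17, 17810399 to 17837002, minus strand) was at 199, 180.0 and 175 CPM in siMatrin3, against 151, 164 and 144 CPM in siCTRL. The lowest siMatrin3 library exceeded the highest control library, by a small margin. Its log2 fold change was 0.26 ± 0.07 (SE, edgeR adjusted p = 0.0232, and 0.00757 with the replicate block). On TPM values the groups overlapped, with 91.1, 90.5 and 72.5 in siMatrin3 against 69.4, 93.0 and 70.8 in siCTRL, and the log2 fold change on log2(TPM + 1) was 0.13 (adjusted p = 0.644 by limma-trend). The call was also lost with effective lengths as an offset (edgeR adjusted p = 0.447) and without siCTRL replicate 1 (edgeR adjusted p = 0.0732), siCTRL replicate 3 (0.118) or siMatrin3 replicate 1 (0.104). RAI1 overlaps SREBF1 on the opposite strand, with 3030.1 estimated counts over the 6 libraries against 6521.9 for SREBF1, and reads of the pair may not be separated.

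SREBF2 (ENSG00000198911, chromosome 22, 41833105 to 41907306, plus strand) was at 198, 190.5 and 197 CPM in siMatrin3, against 214, 225 and 242 CPM in siCTRL. All siMatrin3 libraries were below all control libraries. Its log2 fold change was -0.22 ± 0.06 (SE, edgeR adjusted p = 0.0273, 0.0113 with the replicate block), a fall to 86.1% of the control level. TPM values did not overlap either, at 49.2, 45.5 and 43.4 in siMatrin3 and 56.9, 56.2 and 62.8 in siCTRL, but limma-trend on log2(TPM + 1) did not call it (-0.34, adjusted p = 0.0889), nor did edgeR with effective lengths as an offset (-0.24, adjusted p = 0.12). Leaving out any library other than siCTRL replicate 1 also ended the call, with adjusted p from 0.0642 to 0.133 by edgeR. The antisense gene SREBF2-AS1 carried 291.4 estimated counts over the 6 libraries, against 8079.6 for SREBF2.

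Within a library, the balance of SREBF1 to SREBF2 differed between the groups. The ratio of their CPM was 1.0, 0.945 and 0.888 in siMatrin3 and 0.707, 0.732 and 0.597 in siCTRL. The 2 sets of ratios did not overlap (exact two-sided permutation p = 0.1, the smallest possible here). In CPM this had to be so, since SREBF1 was higher and SREBF2 lower in all siMatrin3 libraries, and it is no further test. On TPM values the ratio was 1.85, 1.99 and 1.67 in siMatrin3, against 1.22, 1.65 and 1.13 in siCTRL, still without overlap but with siCTRL replicate 2 close to the lowest siMatrin3 library. That SREBF1 had more transcripts per length than SREBF2 held in all 6 libraries.

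The other parts of the sensor did not pass. SCAP, the cholesterol-sensing escort of the SREBPs, was at 79.8, 75.4 and 81.1 CPM in siMatrin3 and 77.0, 76.8 and 76.4 CPM in siCTRL (log2 fold change 0.04, 95% interval -0.09 to 0.17). INSIG1, an anchor of SCAP in the ER and a target of the SREBPs themselves, was at 67.4, 80.8 and 72.7 CPM in siMatrin3 and 63.9, 73.3 and 60.1 CPM in siCTRL. The groups overlapped, and the log2 fold change was 0.15 ± 0.09 (SE, edgeR adjusted p = 0.341). INSIG2, the second anchor, was low in every library, at 10.6, 9.92 and 10.1 CPM in siMatrin3 and 10.8, 11.2 and 8.28 CPM in siCTRL (log2 fold change 0.01, 95% interval -0.32 to 0.34). The ratio of INSIG1 to INSIG2 averaged 7.23 ± 0.883 in siMatrin3 and 6.58 ± 0.668 in siCTRL (SD, n = 3 each, exact permutation p = 0.5). Of the 7 genes of SREBP control, 1 rose and 2 fell, and the median was 0.01 in log2 fold change.

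Among the 6 genes that store, cleave and carry cholesterol, NCEH1 alone passed, and the median of the 6 was -0.14. SOAT1, which esterifies cholesterol in the ER and so opposes NCEH1, averaged 52.6 ± 3.15 CPM in siMatrin3 and 57.3 ± 4.53 CPM in siCTRL (SD, n = 3 each, log2 fold change -0.11, edgeR adjusted p = 0.428). The ratio of NCEH1 to SOAT1 was 0.140, 0.166 and 0.190 in siMatrin3, against 0.374, 0.437 and 0.468 in siCTRL. Every siMatrin3 ratio lay below the control ratios (exact permutation p = 0.1, the smallest possible). With SOAT1 differing little, the ratio restates the fall of NCEH1 and is no separate test. LIPA, the acid lipase of lysosomes, was at 22.4, 29.6 and 22.5 CPM in siMatrin3 and 26.3, 32.4 and 26.1 CPM in siCTRL. It was lower in siMatrin3 in all 3 pairs of the same number, but the groups overlapped in CPM (log2 fold change -0.22, edgeR adjusted p = 0.328). TPM values of LIPA did not overlap, at 8.97, 11.4 and 8.55 in siMatrin3 and 14.2, 13.7 and 12.0 in siCTRL. On log2(TPM + 1) limma-trend did not call it (-0.43, adjusted p = 0.184). STARD4, a cytosolic sterol carrier, averaged 48.0 ± 8.32 CPM in siMatrin3 and 53.5 ± 3.07 CPM in siCTRL (SD, n = 3 each, log2 fold change -0.17, edgeR adjusted p = 0.346), and passed only without siMatrin3 replicate 2 (-0.32, adjusted p = 0.0445). NPC1, the lysosomal membrane exporter, and NPC2, its soluble partner, had log2 fold changes of 0.02 and 0.01.

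None of the 17 enzymes from acetoacetyl-CoA to cholesterol passed the threshold of edgeR, and none did with DESeq2 or limma-trend on log2(TPM + 1). Unadjusted p by edgeR was under 0.05 for 3603 of all 14334 genes tested, and for SQLE and IDI1 among these 17 enzymes. Their median log2 fold change was -0.04, with 7 above and 10 below 0 (-0.13 with 2 above and 15 below 0 on log2(TPM + 1), where the median of all genes tested lay at -0.09), and their 95% intervals reached from -0.58 (HSD17B7) to 0.44 (SQLE). Their summed level was 1111, 1255 and 1203 CPM in siMatrin3 and 1132, 1319.5 and 1177 CPM in siCTRL. The ranges overlapped in part, with siMatrin3 replicate 1 the lowest and siCTRL replicate 2 the highest of the 6 (exact two-sided permutation p = 0.9, where 3 against 3 libraries cannot go below 0.1).

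In the first stretch, from acetyl-CoA to squalene epoxide, 8 genes had a median of 0.01. HMGCS1, which makes HMG-CoA and is a common gauge of SREBP-2 activity, was at 115, 139 and 122 CPM in siMatrin3 and 119, 133 and 118 CPM in siCTRL. The groups lay on top of each other (log2 fold change 0.01 ± 0.08 SE, 95% interval -0.14 to 0.17). ACAT2 (0.06), which joins acetyl-CoA units, the kinase MVK (-0.00), the decarboxylase MVD (0.10), the prenyl synthase FDPS (0.01) and the squalene synthase FDFT1 (-0.08) were all within 0.10 of 0 in log2 fold change. ACAT2 overlaps TCP1 on the opposite strand, a gene with far more reads, so its value is uncertain.

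SQLE and IDI1 were the members of this stretch that came nearest to the threshold. SQLE, squalene epoxidase, a rate-limiting step after the reductase, was at 73.4, 79.0 and 79.2 CPM in siMatrin3 and 59.3, 71.9 and 58.5 CPM in siCTRL. All siMatrin3 libraries were above all control libraries, with siCTRL replicate 2 close to them. Its log2 fold change was 0.27 ± 0.09 (SE, edgeR adjusted p = 0.0585), and it passed with the replicate block (adjusted p = 0.0166) and without siCTRL replicate 2 (adjusted p = 0.0158), as well as with no count filter (0.0112) or a minimum count of 30 (0.0484). IDI1, which interconverts the 2 isoprenoid units, was at 53.8, 66.7 and 61.3 CPM in siMatrin3 and 63.4, 75.2 and 70.6 CPM in siCTRL. The groups overlapped in CPM, but within each pair of the same number siMatrin3 was lower, by log2 differences of -0.24, -0.17 and -0.20. The edgeR adjusted p was 0.143 without and 0.0465 with the replicate block. TPM values of IDI1 did not overlap, at 25.6, 29.1 and 28.6 in siMatrin3 and 30.1, 34.9 and 36.1 in siCTRL. On log2(TPM + 1) limma-trend did not call it (-0.27, adjusted p = 0.217).

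The 9 enzymes that shape the sterol ring had a median log2 fold change of -0.06, and 7 of them were below 0. LSS, which closes the ring to lanosterol, was at -0.06, CYP51A1, the lanosterol demethylase, at -0.04, and DHCR7, the last enzyme of 1 branch, at -0.07. The largest differences were those of HSD17B7, a keto-reductase (-0.22, edgeR adjusted p = 0.513), SC5D, the sterol desaturase (-0.22, adjusted p = 0.295), and MSMO1, the methyl oxidase (-0.19, adjusted p = 0.286). SC5D was at 39.9, 55.0 and 37.3 CPM in siMatrin3 and 50.9, 53.8 and 47.4 CPM in siCTRL. Its siMatrin3 replicate 2 stood above every control library while the other 2 stood below them, and without that library SC5D passed (log2 fold change -0.40, edgeR adjusted p = 0.0198). EBP (-0.04), NSDHL (0.04) and TM7SF2 (0.01) were near 0. TM7SF2 overlaps VPS51 on the same strand, which carried 2474.2 estimated counts over the 6 libraries against 489 for TM7SF2.

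Of the 37 genes, 31 had a RefSeq promoter window on GRCh38.p14, from 250 bases before to 50 bases after the start. These windows were searched on both strands for 4 short motifs. ACAT2, FDFT1, SQLE, FASN, ERLIN1 and ERLIN2 had no window and were not searched. TCACCCC or TCACGCC, a core of the sterol regulatory element that SREBPs bind, occurred in 5 of the 31 (16.1%), against 7.7% of all 27305 windows of this length and 8.9% of those of tested genes. CCAAT, the box bound by NF-Y, occurred in 64.5% of the 31, against 35.7% of all windows, and in 12 of the 14 windows of sterol enzymes. GGGCGG, the GC box bound by SP1, occurred in 90.3%, against 44.6% of all windows and 71.1% of those of tested genes. CACGTG, the E-box, occurred in 12.9%, against 7.4% of all windows and 10.1% of those of tested genes. The 5 windows with a sterol element core are printed because the element is the one that SREBPs recognise, with the core in capitals and the promoter strand read 5′ to 3′.
SREBF2, chr22:41832961-41832990, plus strand: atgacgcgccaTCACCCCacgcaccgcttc
MVK, chr12:109573588-109573617, plus strand: gttcgcagttcTCACCCCagggcgggacac
IDI1, chr10:1056695-1056724, minus strand: ggcgccggaagTCACGCCccggcttccgcc
MSMO1, chr4:165327419-165327448, plus strand: ccgcccccTCACGCCgtggcgcgctctcac
NSDHL, chrX:152830925-152830954, plus strand: attgggcaagaTCACGCCgtgagcgccaat
Of these 5 genes SREBF2 fell (log2 fold change -0.22), and MVK (-0.00), IDI1 (-0.22), MSMO1 (-0.19) and NSDHL (0.04) did not pass. The IDI1 window, at chr10:1056655-1056954, lies wholly upstream of the GENCODE span of the gene (chr10:1039152-1049119, minus strand). Its RefSeq start thus differs from the start of that span. Whether IDI1 transcripts of these cells begin there was not tested, and IDI1 is still counted among the 5. A match of letters is not a bound site, and genes without a match in this window may hold elements elsewhere.

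The 7 genes of fatty acid synthesis all had log2 fold changes above 0, between 0.03 and 0.34 with a median of 0.10, although FASN (-0.04), SCD (-0.08) and FADS1 (-0.06) were below 0 on log2(TPM + 1), where the median of all genes tested was itself at -0.09 and thus below each of them. None passed by edgeR, DESeq2 or limma-trend. ACLY, ELOVL6 and FADS2 had an unadjusted p under 0.05 by edgeR, as had 3603 of all 14334 genes tested. ACLY, which supplies cytosolic acetyl-CoA to both pathways, was at 456, 475 and 461 CPM in siMatrin3 and 399.6, 445 and 414 CPM in siCTRL. The groups did not overlap, and the log2 fold change was 0.14 ± 0.05 (SE, edgeR adjusted p = 0.106, 0.0315 with the replicate block). ACACA, the acetyl-CoA carboxylase of the cytosol, was at 407, 409 and 411 CPM in siMatrin3 and 378, 381 and 389 CPM in siCTRL, again without overlap (log2 fold change 0.10, edgeR adjusted p = 0.220). The elongase ELOVL6 was at 73.9, 86.2 and 78.1 CPM in siMatrin3 and 72.1, 73.6 and 60.1 CPM in siCTRL, with siMatrin3 replicate 1 and siCTRL replicate 2 almost level (log2 fold change 0.20, edgeR adjusted p = 0.159).

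The desaturases differed in their levels more than in their fold changes. FADS2 was at 21.7, 17.8 and 16.2 CPM in siMatrin3 and 15.1, 16.0 and 12.7 CPM in siCTRL, with a log2 fold change of 0.34 ± 0.15 (SE, edgeR adjusted p = 0.155), the highest of the 37. It overlaps FEN1 on the same strand and FADS1 on the opposite strand, which carried 4598 and 3950.9 estimated counts over the 6 libraries, against 642 for FADS2, so its value is uncertain. FADS1 had a log2 fold change of 0.10. FASN, fatty acid synthase, averaged 2164 ± 105 CPM in siMatrin3 and 2052 ± 183 CPM in siCTRL (SD, n = 3 each, log2 fold change 0.08). SCD, which puts the first double bond into saturated fatty acids, averaged 1731 ± 66.5 CPM in siMatrin3 and 1691 ± 83.6 CPM in siCTRL (SD, n = 3 each, log2 fold change 0.03). Neither passed. The sum over the 7 genes was 4924, 5153 and 4840.2 CPM in siMatrin3 and 4531, 5071 and 4579 CPM in siCTRL, with siCTRL replicate 2 inside the range of the siMatrin3 libraries (exact permutation p = 0.3 without pairing). Within each of the 3 pairs of the same number the sum, most of it FASN and SCD, was higher in siMatrin3. Of the 7 genes, 6 were higher in siMatrin3 in all 3 pairs, FASN being the exception. The share of all genes tested with that pattern was not computed, so the count has nothing to be set against.

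Replicate 2 of both groups stood out in this pathway, a pattern that was noticed after the values were seen. Of the 17 sterol enzymes, 9 (52.9%) were highest in replicate 2 both among the siMatrin3 libraries and among the siCTRL libraries, and of the 7 fatty acid genes 4 (57.1%) were. Over all 37 genes the share was 45.9%, against 14.1% of all genes tested. Within siCTRL alone, 15 of the 17 sterol enzymes were highest in replicate 2, and within siMatrin3 9 were highest in replicate 2 and 8 in replicate 3. The same 2 libraries had the highest mitochondrial shares of their groups, at 11.6% in siMatrin3 and 10.2% in siCTRL, and whether that plays a part was not tested. In depth they were not alike, since replicate 2 was the shallowest of the siMatrin3 libraries (6007630 counts) and the deepest of the siCTRL libraries (8400412 counts). What the numbers stand for (a culture, a day or a plate) is not given in the sources used here.

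**Figure D3:**
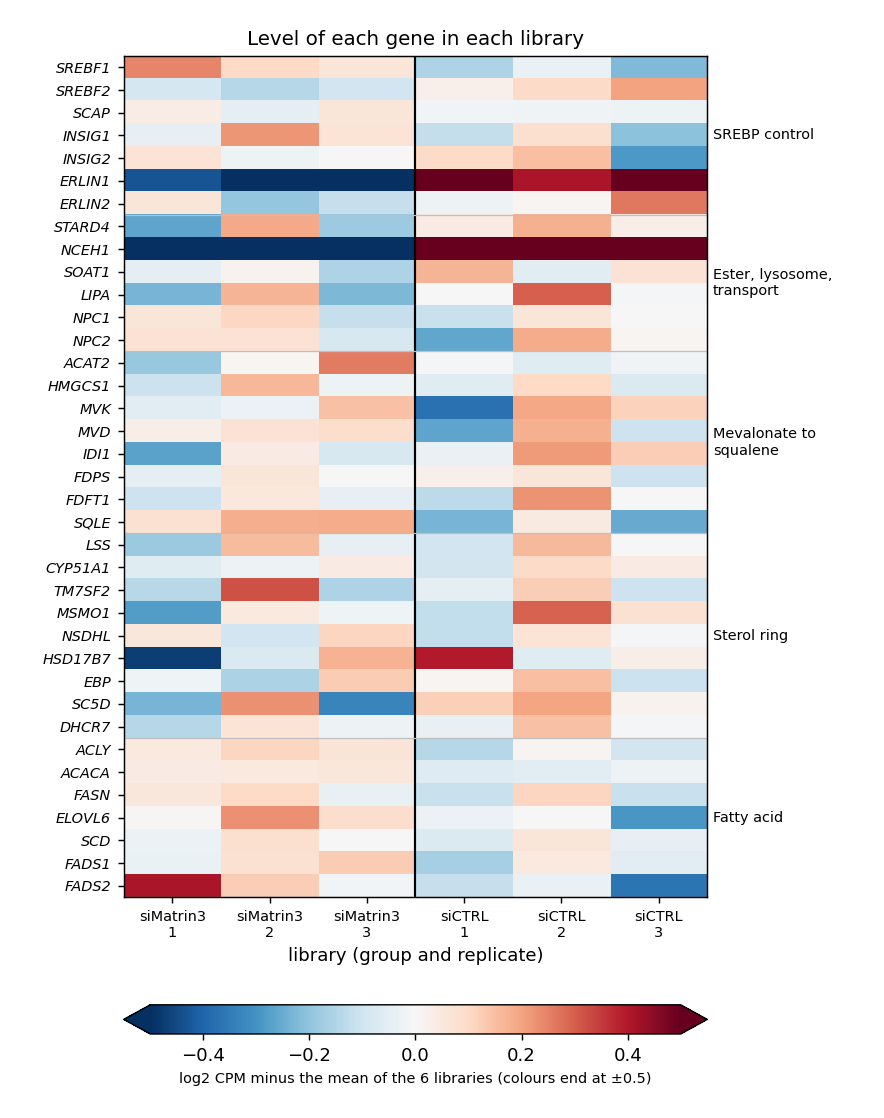
Log2 CPM of each of the 37 genes (rows, by role) in each library (columns, the 3 siMatrin3 libraries left of the 3 siCTRL libraries), as the difference from the gene's mean over the 6 libraries, with colours ending at 0.5 in either direction. ERLIN1 and NCEH1 change colour between the groups, and many sterol enzymes are redder in replicate 2, most plainly in siCTRL, where 15 of 17 were highest.

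The genes covered a wide range of levels per length. SCD averaged 316 ± 10.9 TPM in siMatrin3 and 334 ± 12.2 TPM in siCTRL, and FASN averaged 263 ± 13.9 TPM in siMatrin3 and 269.9 ± 16.5 TPM in siCTRL (SD, n = 3 each). Together SCD and FASN took 54.1% to 56.1% of the estimated counts of the 37 genes in a library. FDPS (121 TPM in siMatrin3 and 135 TPM in siCTRL), FDFT1 (111 TPM in siMatrin3 and 124 TPM in siCTRL) and ACLY (114 TPM in siMatrin3 and 112 TPM in siCTRL) followed without a gap between them. At the low end of the order, which is by the mean over both groups, stood FADS2 (8.29 TPM in siMatrin3 and 6.16 TPM in siCTRL), INSIG2 (5.86 TPM in siMatrin3 and 6.50 TPM in siCTRL) and NCEH1 (2.83 TPM in siMatrin3 and 9.05 TPM in siCTRL). Of the 36 neighbouring pairs, only SCD and FASN, FASN and FDPS, and ACLY and SREBF1 did not overlap across the 6 libraries. These ranges pool both groups, so an overlap can come from the difference between siMatrin3 and siCTRL. NCEH1 and INSIG2 overlapped in this way but were apart within each group. In siMatrin3 NCEH1 was at 2.74 to 2.91 TPM and INSIG2 at 5.72 to 5.96 TPM. In siCTRL NCEH1 was at 8.89 to 9.13 TPM and INSIG2 at 5.81 to 6.98 TPM. Within each group, ERLIN1 was likewise apart from its neighbours NPC1 and LSS.

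**Figure D4:**
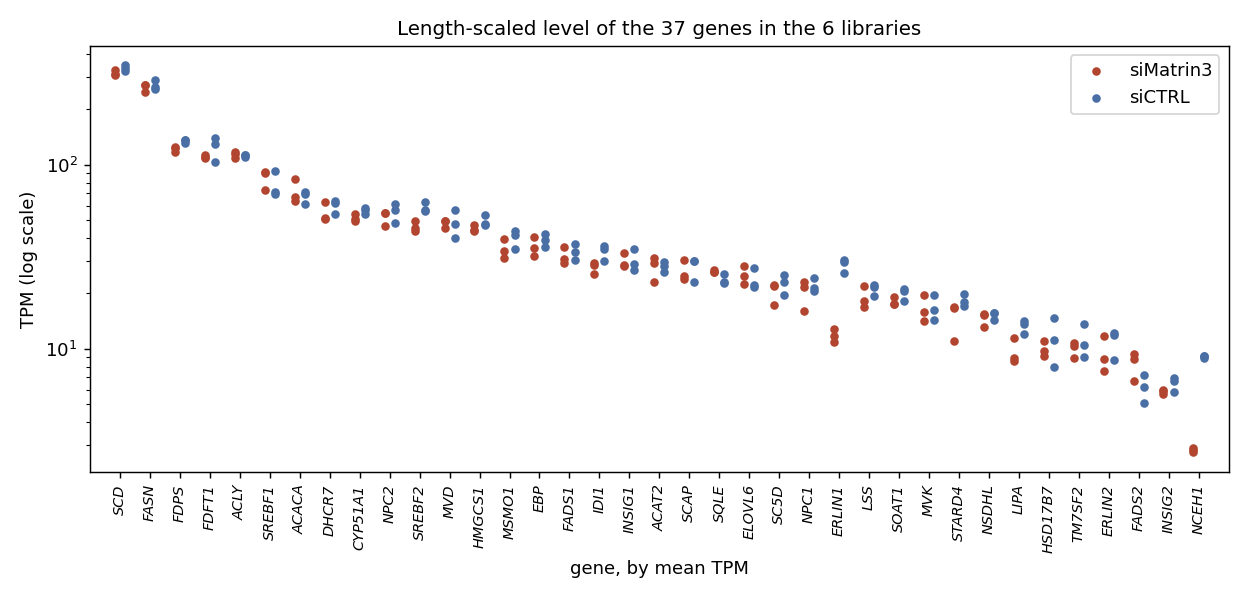
TPM (y axis, log scale) of the 37 genes in the order of their mean level (x axis), with 3 siMatrin3 points to the left of 3 siCTRL points for each gene. SCD and FASN lie highest, NCEH1 lies lowest over both groups together though above INSIG2 and FADS2 in siCTRL, and only ERLIN1 and NCEH1 show a gap between the groups that is wide against the spread of their libraries.

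The effective length of a gene in these tables is a mean over its isoforms, weighted by their estimated abundance, and was compared as a crude readout of isoform use. For 1 of the 37 genes, LIPA, the groups did not overlap, against 9.44% of all genes tested. Its effective length was 2417, 2449 and 2450 bases in siMatrin3 and 1912, 2389 and 2274 bases in siCTRL. Only siCTRL replicate 1 was far from the rest (exact two-sided permutation p = 0.1, the smallest possible here). Those of ERLIN1 averaged 3046 bases in siMatrin3 and 2851 bases in siCTRL, and those of NCEH1 averaged 2899 bases in siMatrin3 and 2767 bases in siCTRL, with overlap in both genes.

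The rest of the pathway was read from 4 further lists with 90 genes, of which 79 could be tested, 16 rose (20.3%) and 4 fell (5.06%), against 5.68% and 5.18% of all genes tested. These lists were chosen with earlier results of the same libraries known. Of 20 genes for SREBP transport, cleavage and sterol-driven degradation, 6 rose and 1 fell (4 and 1 with DESeq2, 2 and 0 with effective lengths as an offset), and the median was 0.04 in log2 fold change. SEC24A, a cargo-binding coat protein of ER export vesicles, was at 58.8, 59.9 and 63.5 CPM in siMatrin3 and 39.7, 39.4 and 37.2 CPM in siCTRL (log2 fold change 0.65, edgeR adjusted p = 1.59e-04). MBTPS2, the site-2 protease that frees SREBPs in the Golgi, was at 31.6, 33.8 and 38.7 CPM in siMatrin3 and 25.5, 21.6 and 21.7 CPM in siCTRL (0.61, adjusted p = 0.00339). UBE2G2, a ubiquitin-conjugating enzyme of ER-associated degradation, was at 91.6, 83.7 and 101 CPM in siMatrin3 and 64.3, 61.5 and 60.8 CPM in siCTRL (0.57, adjusted p = 5.75e-04). In none of these did the groups overlap. UBE2G2 kept its call in 17, SEC24A in 15 and MBTPS2 in 14 of 18 refits. On log2(TPM + 1), limma-trend called neither SEC24A (0.41, adjusted p = 0.177) nor MBTPS2 (0.44, adjusted p = 0.184). With effective lengths as an offset MBTPS2 was at 0.62 (edgeR adjusted p = 0.0524). PGRMC1, a haem-binding membrane protein (0.28), SEC23B, an inner coat protein (0.26), and SEC24D (0.36, named after its value was seen, and at -0.03 on log2(TPM + 1)) also rose, and SAR1A, the GTPase that starts the coat, fell (-0.30). Of these 4, PGRMC1 and SEC24D did not pass with DESeq2 (adjusted p = 0.0513 and 0.0594), and none passed with effective lengths as an offset, where SAR1A was at -0.09 (edgeR adjusted p = 0.676). SEC24A overlaps SAR1B on the opposite strand, with 2037.8 estimated counts over the 6 libraries against 1908.8. The coat proteins and UBE2G2 serve all ER cargo and substrates, not SREBPs alone.

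Of 10 other genes of sterol and isoprenoid synthesis that could be tested, 1 rose and 1 fell. NUS1, a subunit of the enzyme that makes dolichol chains, fell (log2 fold change -0.28, edgeR adjusted p = 0.0190). It kept its call in 11 of 18 refits. The call was lost with effective lengths as an offset (-0.29, edgeR adjusted p = 0.125) and on log2(TPM + 1) (-0.38, limma-trend adjusted p = 0.127).

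Of 22 genes of lipoprotein uptake, sterol efflux and sterol transfer that could be tested, 5 rose and 2 fell (2 and 1 with DESeq2, 0 and 0 with effective lengths as an offset), with a median of 0.09. Those that rose included SCARB1, a receptor for high-density lipoprotein (log2 fold change 0.30, edgeR adjusted p = 0.00577), NR1H2, the oxysterol receptor LXR-beta (0.45, adjusted p = 0.0259), STARD3, an endosomal sterol carrier (0.32, adjusted p = 0.0335), and LAMP1, a lysosomal membrane protein (0.18, adjusted p = 0.0485, named after its value was seen). GRAMD1B, which carries cholesterol from the plasma membrane to the ER, fell (-0.68, adjusted p = 0.0163), as did LRP8, a receptor of the lipoprotein receptor family (-0.35, adjusted p = 0.0301). With DESeq2 the calls of NR1H2 (adjusted p = 0.0542), STARD3 (0.161), LAMP1 (0.11) and LRP8 (0.0537) were lost, and LAMP1 kept its call in 4 of 18 refits and STARD3 in 7. LRP8 was at -0.19 with effective lengths as an offset. GRAMD1B stood at 10.3, 10.1 and 10.4 CPM in siMatrin3, against 13.4, 15.9 and 19.9 CPM in siCTRL, without overlap.

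Of 27 further fatty acid genes that could be tested, 4 rose and none fell, with a median of 0.06. Among all 14334 genes tested, 3603 had an unadjusted edgeR p under 0.05. Of these 27, 8 did, in either direction. The replicate block gave 4 higher and 2 lower, DESeq2 gave 2 and 0, and effective lengths as an offset or limma-trend on log2(TPM + 1) gave 0 and 0. Those that rose were SLC25A1, the mitochondrial citrate exporter (log2 fold change 0.33, edgeR adjusted p = 0.00358), ACSL4, an acyl-CoA synthetase for polyunsaturated fatty acids (0.33, adjusted p = 0.0179), HACD3, a dehydratase of fatty acid elongation (0.24, adjusted p = 0.0218), and MLXIPL, the carbohydrate-responsive factor ChREBP (0.43, adjusted p = 0.0264). DESeq2 did not call HACD3 (adjusted p = 0.051) or MLXIPL (0.0735), and MLXIPL was at 0.24 with effective lengths as an offset. SLC25A1 delivers the citrate that ACLY cleaves. It was at 110.4, 109 and 108 CPM in siMatrin3 and 84.2, 89.2 and 85.8 CPM in siCTRL, 2 narrow ranges far apart.

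**Figure D5:**
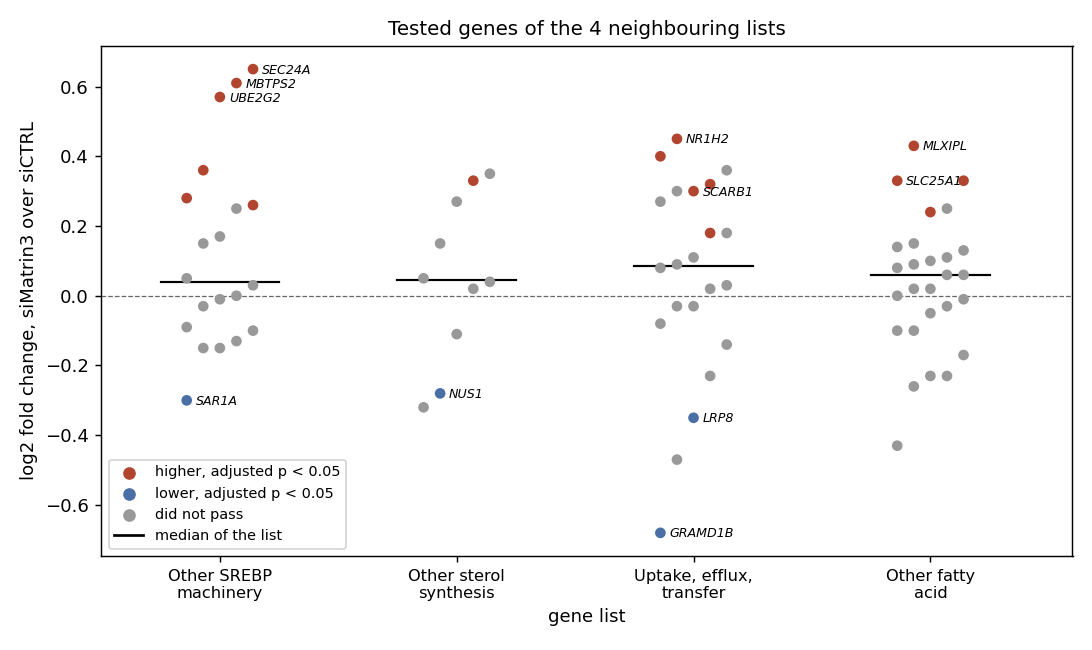
Log2 fold change between siMatrin3 and siCTRL (y axis, above 0 where siMatrin3 was higher) for the tested genes of the 4 further lists (x axis), 1 point a gene, with a line at each list's median. SEC24A, MBTPS2 and UBE2G2 lie highest, between 0.57 and 0.65, GRAMD1B lies lowest at -0.68, and the 4 medians lie between 0.04 and 0.09.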

How the data were processed

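RNA of 6 HCT116 libraries was analysed from gene tables. The methods describe TRIzol extraction, ribosomal RNA depletion and a directional kit, whereas the labels name a stranded mRNA kit. Per the labels, the authors used cutadapt, TopHat and RSEM on hg19. The deposited expected counts are RSEM's estimated counts per gene, with no normalization applied. TPM values, also deposited, were scaled by RSEM inside each library, and the deposited effective length, in bases, is another RSEM output. The deposited FPKM values were not used. Neither the annotation release nor a strand setting is given in the sources used here. IDs were matched to GENCODE release 44 on hg38 (58472 of 58884), and 25 of the 37 genes overlap another annotated gene, so that their reads may be split by estimate.

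Expected counts were rounded and filtered (edgeR filterByExpr, minimum count 10, minimum total 15). Libraries were scaled by TMM and compared by a two-sided quasi-likelihood test in edgeR 4.0.16 under R 4.3.3, with Benjamini-Hochberg adjustment over 14334 genes at 0.05. SE was taken from the fold change and the root of its F statistic. Single values were compared by exact two-sided permutation tests. The p-values reflect only the variation among these libraries, whose biological coefficient of variation was 6.44%. Pairs within a group differed by more than sampling noise (chi-square of 2.65 to 4.40 per degree of freedom). Same-numbered libraries deviated together (correlations of 0.127, 0.122 and 0.152, against -0.0881 to -0.0389 for other pairs), so that the numbers were taken to pair the samples in the replicate block. The main fit and the permutation tests did not use the pairing. Since deviations within a group sum to 0, positive correlations of same-numbered libraries push those of other pairs below 0.

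The alternatives were RLE and upper quartile scaling, no count filter, a minimum count of 30, at least 1 CPM in 3 libraries, mitochondrial and small RNA genes left out, effective lengths as an offset, each library left out, the replicate block, DESeq2 1.42.0, limma-trend (limma 3.58.1) on log2 TPM with 1 or 0.1 added, and an adjusted p of 0.01. The genes, lists, tests and naming rule were chosen with earlier results of these data known. The rule accounts for all 37 genes, with library values for those past the threshold and for INSIG1, INSIG2, HMGCS1 and SQLE, and takes up to 6 genes of lowest p from each further list. Some genes taken by the rule are not reported here, and SEC24D and LAMP1 were added after their values were seen. Protein sequences were not used here.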

Additional observations from a re-analysis of the deposited data

How the results depend on the processing

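Of the 37 genes, ERLIN1 and NCEH1 kept their calls in 17 of 18 refits, with log2 fold changes from -1.27 to -1.01 and from -1.64 to -1.39. The exception was limma-trend on log2(TPM + 1) with no filter (adjusted p = 0.0797 for both), which called 0 genes higher and 1 lower in all. SREBF1 kept its call in 11 and SREBF2 in 9 of 18, both with the same sign throughout. Among those that did not pass, 76 of 594 values changed sign.

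Of the 37 genes, those that rose were 2 with no count filter or a minimum count of 30, 3 with the replicate block, and 0 with effective lengths as an offset, on TPM values (log2(TPM + 1) and log2(TPM + 0.1), filtered or not) and at an adjusted p under 0.01, against 1. Without 1 library they ranged from 0 to 2, and those that fell from 2 to 4. Those that fell were 0 on log2(TPM + 1) with no filter, against 3. With the pairing of replicates, 4 fell. The block also called SQLE, ACLY and IDI1 and ended no call among the 37.

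Over all genes, 814 rose and 743 fell. The counts were 99 and 105 with effective lengths as an offset, 31 and 118 on log2(TPM + 1), 30 and 102 on log2(TPM + 0.1), and 294 and 295 at an adjusted p under 0.01. DESeq2 called 548 and 463. Leaving out 1 library gave 350 to 631 higher and 357 to 625 lower. Limma-trend moved the median of all genes by -0.09 on log2(TPM + 1) and -0.10 on log2(TPM + 0.1).

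In the 4 further lists, 16 rose and 4 fell. These were 3 and 0 with the offset, 1 and 0 on log2(TPM + 1) and log2(TPM + 0.1), 0 and 0 with no filter on TPM, 6 and 1 at 0.01, and 9 higher with DESeq2. Without 1 library 6 to 13 rose and 0 to 5 fell. SEC24D turned to -0.03 on log2(TPM + 1), with or without the filter, and on log2(TPM + 0.1). The effective lengths of 2 to 5 genes did not overlap when 1 library was left out, against 1. The causes of these differences were not tested, apart from fewer libraries or a stricter threshold by construction. The least counted of the 37 genes had 47.0 estimated counts in its lowest library.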
